A study of Mus musculus and Acomys cahirinus with 84 samples.

Results

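The genes described here are the plasminogen activators Plat (tissue-type) and Plau (urokinase-type), the urokinase receptor Plaur, and 3 members of the serpin family, Serpine2, Serpinb2 and Serpinf1, in cultured skin fibroblasts before and after gamma irradiation. They were chosen by symbol, by a rule with no threshold on a measured value, and all 6 were found in the mouse count table (6 of 56980 gene identifiers) and in the *A. cahirinus* table (6 of 19818 gene names). RNA sequencing covered 84 libraries of primary skin fibroblasts from 3 populations: mice labelled C56BL6, wild mice, and *Acomys cahirinus*, the African spiny mouse. Each population had 7 groups of 4 libraries: untreated, 10 Gy and 20 Gy cells at 24 h, the same 3 at 12 d, and a 12 d group of untreated cells labelled as passaged, with no irradiation. The labels give no age, sex, substrain, culture density or passage count and name no genetic change. The library names carry an animal code that is shared by all libraries of a population with the same replicate number, so a number from 1 to 4 is used below as the animal. The batch label separates the 24 h libraries from the 12 d libraries completely, so the effect of time cannot be told apart from that of batch, and the times were analysed separately.

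Plasminogen activators are secreted serine proteases that cleave plasminogen to plasmin, a broad protease that dissolves fibrin and degrades or activates matrix proteins, latent growth factors and pro-metalloproteinases. Urokinase is held at the cell surface by its receptor, which concentrates plasmin formation there, while tissue-type activator works mainly on fibrin. Serpins are suicide inhibitors that trap their protease: Serpine2 (protease nexin-1) inhibits thrombin and both activators, and Serpinb2 (plasminogen activator inhibitor 2) inhibits urokinase. Serpinf1 encodes pigment epithelium-derived factor, a secreted serpin that binds matrix and has no known protease target. Activators, receptor and inhibitors of this system are among the secreted and surface proteins for which irradiated and senescent fibroblasts are known.

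On GRCm39 the mouse genes lie apart from each other, except that Serpine2 (chr1:79771914-79838897, minus strand) and Serpinb2 (chr1:107439153-107463208, plus strand) share a chromosome. Plat is at chr8:23247743-23272860 (plus), Plau at chr14:20886728-20893453 (plus), Plaur at chr7:24161909-24175393 (plus) and Serpinf1 at chr11:75300595-75313527 (minus). Values are counts summed over the exons of a gene and scaled to the library total as counts-per-million values (CPM; trimmed-mean-of-M-values scaling over all libraries of a table). Total counts per library, in mega-counts (M), were 26.65 to 39.82 M for C56BL6, 17.42 to 35.98 M for wild and 25.55 to 52.86 M for *A. cahirinus* cells. A floor of 3 counts equalled 0.075 to 0.113, 0.083 to 0.172 and 0.057 to 0.117 CPM in turn. This floor covers counting error only.

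Some libraries stood apart, and calls that changed when the libraries of number 1 were left out of the blocked fit are given both ways. All 10 fibroblast markers were listed in both count tables, and 8 to 10 of them had a mean of at least 1 CPM, depending on the group. Their summed level was 11000 to 88000 CPM. The 8 keratinocyte markers summed to 264 to 389 CPM (24 h) and 194 to 839 CPM (12 d) in the libraries of C56BL6 animal 1, against 1.17 to 3.9 CPM in animals 2 to 4, where Krt14 was at most 0.0747 and Krt5 at most 1.19 CPM. In wild animal 1 the 5 smooth muscle and pericyte markers summed to 4290 to 4770 CPM at 24 h, against 496 to 1630 CPM in the other wild animals. The 12 d libraries of wild animal 1 differed from its own 24 h libraries in 17 genes that were on in all libraries of one set (at least 1 CPM) and without a count in all of the other. They differed in 0 such genes from the 24 h and 12 d libraries of wild animal 4, while every other wild animal differed in 0 from itself across times and the other wild pairs at 12 d differed in 7 to 21. Wild animals 1 and 4 at 12 d may therefore not be separate animals, and p-values of wild 12 d comparisons may rest on fewer animals than 4. The measure does not separate all animals: it was also 0 between C56BL6 animals 3 and 4 at both times and between all *A. cahirinus* animals. One wild library (24 h, 10 Gy, animal 1) had 17843 genes detected, against 21846 to 22253 in the others of its group.

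Each comparison was tested with edgeR over all genes kept by its expression filter, with Benjamini-Hochberg adjustment and a threshold of 0.05, first without and then with the animal as a block. Because same-numbered libraries share an animal, the blocked value is printed wherever it changed a call. "With the block" below names that fit. The whole-cell RNA of a bulk library does not tell fewer cells of a type apart from less RNA per cell.

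At 24 h, Serpine2 was higher and Plat lower at 20 Gy than in the untreated library of the same animal in 12 of 12 animals of the 3 populations. None of the 34 tests of a member at 24 h passed without the block (edgeR, 2 at an unadjusted p under 0.05, 0 by DESeq2), while 16 of 34 passed with it. In C56BL6 mice at 20 Gy 0 of 6 members passed without the block, where 0.0895% of all tested genes did, and 5 of 6 with it, where 17.6% did. At 10 Gy the numbers were 0 of 6 (0.007% of all genes) and 4 of 6 (11.5%). Wild mice at 20 Gy had 0 of 6 (0.0% of all genes) and, with the block, 3 of 6 (12.5%), and at 10 Gy 0 of 6 without it (0.0%). In *A. cahirinus* 0 of 5 tested members passed at 20 Gy (3.59% of all genes) and 0 of 5 at 10 Gy (3.73%), against 2 of 5 (24.1%) and 2 of 5 (27.6%) with the block. Serpinb2 was not tested in *A. cahirinus*, where it was at or near the floor.

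At 12 d the members moved in more than one direction and differently by population: Plaur rose in C56BL6 mice and fell in *A. cahirinus*, and Plat and Serpinf1 fell in C56BL6 mice. After 20 Gy, 1 of 6 members rose and 2 fell in C56BL6 mice (26.5% of all genes passed), and 2 rose and 2 fell with the block (47.5%). After 10 Gy, 1 of 6 rose and 2 fell (20.9% of all genes), and 3 rose and 2 fell with the block (38.8%). In wild mice 0 of 6 passed at 20 Gy (0.0694% of all genes) and 0 of 6 at 10 Gy (0.264%), against 3 of 6 (15.4%) and 2 of 6 (12.7%) with the block. In *A. cahirinus* 1 of 5 fell at 20 Gy (31.8% of all genes) and 3 of 5 with the block (49.2%); at 10 Gy 0 of 5 passed (2.87%) and 1 of 5 with the block (27.5%). The 3 comparisons with no call held 17 tests, of which 4 had an unadjusted p under 0.05 and 2 passed by DESeq2. The median log2 change of the tested members at 20 Gy was 0.19 for C56BL6, -0.17 for wild and -0.45 for *A. cahirinus* cells, where that of all tested genes was -0.01, -0.01 and 0.00. The 2 doses share their untreated libraries.

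Between 20 Gy and 10 Gy cells at 12 d no member was called without the block: 0 of 17 tests passed (edgeR, 1 at an unadjusted p under 0.05, 1 by DESeq2). Of all genes 0.0% passed for C56BL6, 0.0% for wild and 0.457% for *A. cahirinus* cells. With the block 3 of 5 members were lower at 20 Gy in *A. cahirinus*, where 17.9% of all genes passed, and without animal 1 only Plaur was called.

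**Figure D1:**
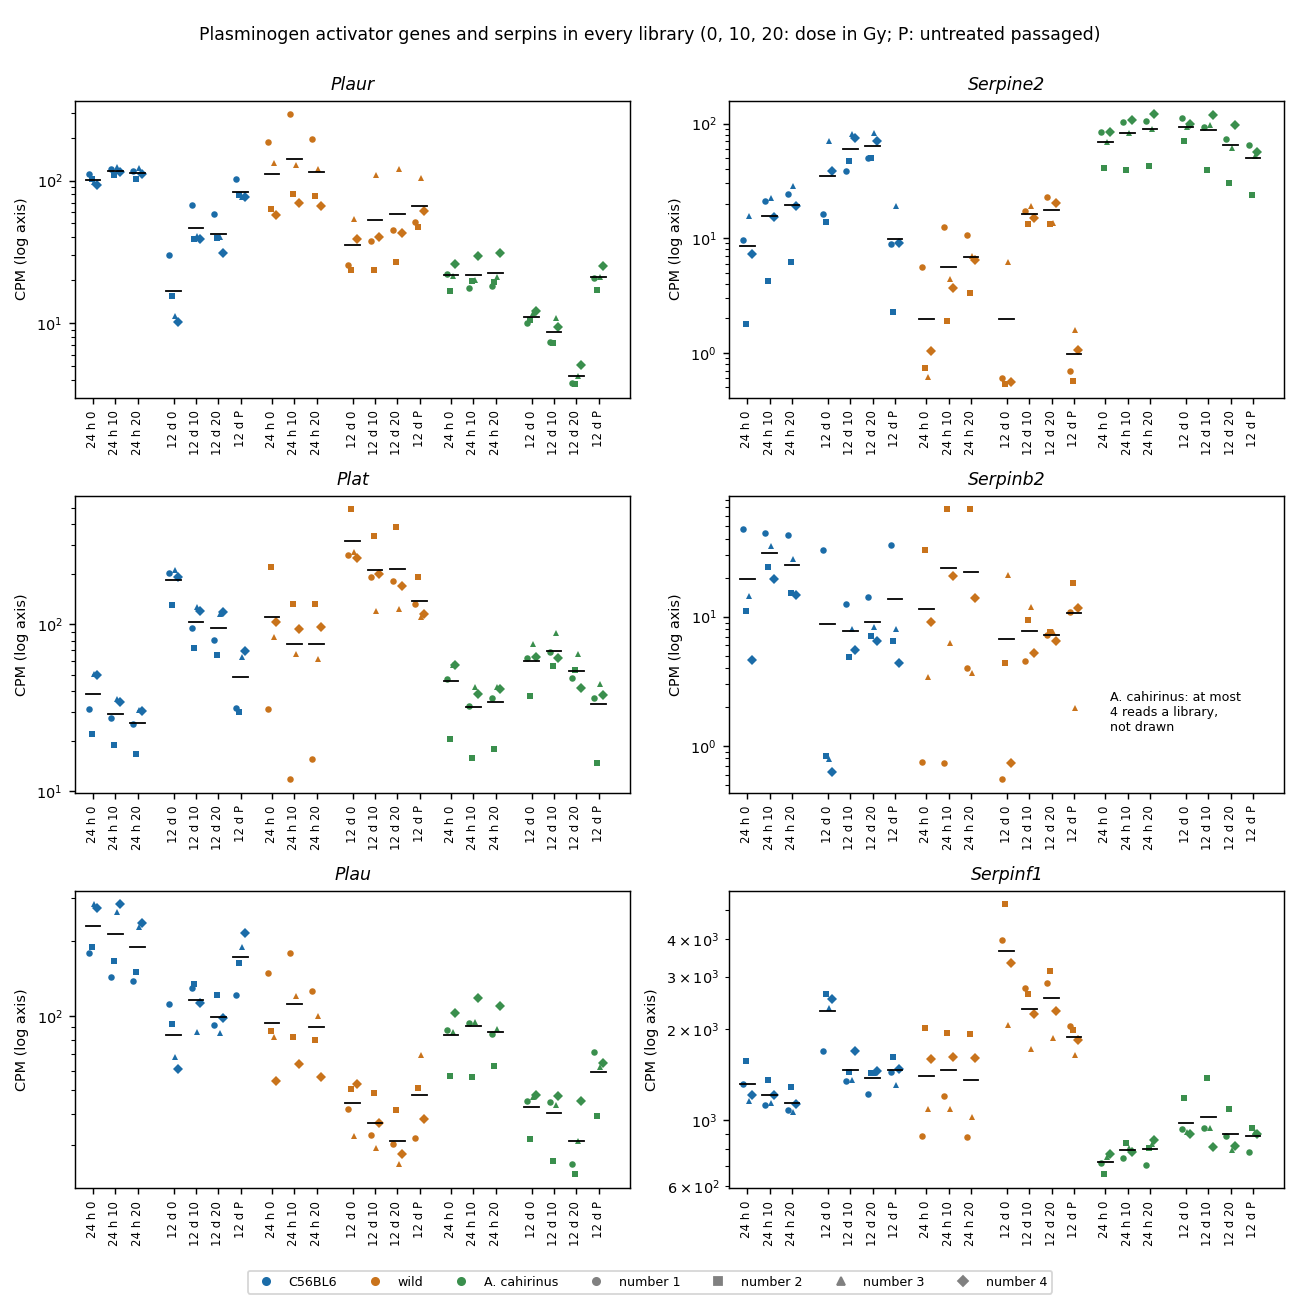
Level of each member in every library, in CPM (log axis), by population and group, with points for libraries (shape gives the animal number) and bars for group means; Serpinb2 of *A. cahirinus* is not drawn. Plaur at 12 d lies at 3.74 to 5.06 CPM in the 20 Gy libraries of *A. cahirinus*, below its untreated libraries (10.1 to 12.1), and at 30.8 to 58 CPM in those of C56BL6 mice, above theirs (10.2 to 29.9).

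Levels can be compared between genes only per length of the counted gene model, as CPM per kilobase, and not between the 2 tables, because the models differ (6241 bp in mouse and 2639 bp in *A. cahirinus* for Plat, 8287 and 2454 bp for Serpine2). Serpinf1 was the highest of the 6 in each of the 21 groups, at 977 ± 176 per kb in untreated C56BL6 cells at 12 d, 1540 ± 556 in wild cells and 648 ± 88.7 in *A. cahirinus* (SD, n = 4 each). In untreated C56BL6 cells at 12 d Plau (35.2 ± 9.82) and Plat (29.6 ± 5.99) came next and overlapped within 1 SD, followed by Plaur (6.39 ± 3.47), Serpine2 (4.17 ± 3.13) and Serpinb2 (3.75 ± 6.86), which overlapped too. In wild cells the order was Plat (51 ± 18.4), then Plau (18.8 ± 3.9) and Plaur (13.6 ± 5.35), which overlapped, then Serpinb2 (2.84 ± 4.15) and Serpine2 (0.238 ± 0.339), which also overlapped. In *A. cahirinus* Serpine2 (38.2 ± 7.21) was second, above Plat (22.7 ± 6.26) and Plau (17.4 ± 3.07), which overlapped, and Plaur (7.52 ± 0.612). Per length, Serpine2 was thus the lowest of the 6 in all 7 wild groups and lay above Plat and Plaur in all 7 groups of *A. cahirinus*. This order of levels within each table was not tested between tables. In mean CPM wild Serpine2 exceeded Serpinb2 at 12 d after 10 Gy (16.1 against 7.75) and 20 Gy (17.5 against 7.23), so its rank there rests on the 8287 bp model. In the other wild groups it was the lowest in CPM too.

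Plaur, the receptor that anchors urokinase to the membrane, showed the difference between populations with the lowest adjusted p among the members. Its mouse promoter is shown because the change of Plaur differed between *A. cahirinus* and both mouse populations without the block. The 250 bases before the RefSeq start on GRCm38.p6 (chr7:24462233-24462482, plus strand; an older build than that of the counts), with matches in capitals, hold 1 AP-1 site (TGACTCA, beginning 69 bases before the start) and 3 GC boxes (GGGCGG) that touch or overlap each other:
Plaur: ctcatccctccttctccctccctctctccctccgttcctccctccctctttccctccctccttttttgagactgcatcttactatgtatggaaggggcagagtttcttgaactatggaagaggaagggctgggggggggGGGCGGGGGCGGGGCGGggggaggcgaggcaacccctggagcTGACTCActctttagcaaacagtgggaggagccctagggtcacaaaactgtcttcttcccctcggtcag
Both strands were searched, and a match is a description of letters only. AP-1 sites were found in 4.46%, CRE sites (TGACGTCA) in 1.55%, TATAAA in 12.4% and GC boxes in 32.7% of 32851 mouse windows of this length. The window of Serpinf1 held none of the 4 motifs. Sequences were taken from RefSeq, whose table gave windows for Plaur, Serpine2, Serpinb2 and Serpinf1 among the 6 members.

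In C56BL6 mice at 12 d Plaur was at 29.9, 15.5, 11.3 and 10.2 CPM in untreated animals 1 to 4, at 67.8, 38.7, 40.8 and 39 CPM after 10 Gy, and at 58, 39.7, 40.3 and 30.8 CPM after 20 Gy. The groups did not overlap, and each animal was higher after either dose, by 1.94-fold to 3.57-fold at 20 Gy. This was a log2 change of 1.38 ± 0.36 (SE, adjusted p = 0.0253) at 20 Gy and 1.52 ± 0.37 (adjusted p = 0.023) at 10 Gy. Animal 1, whose libraries carried keratinocyte markers, was the highest of each group: without it the changes were 1.62 (adjusted p = 0.000959) and 1.72 (adjusted p = 0.000356). The call at 20 Gy was lost without animal 2 (adjusted p = 0.122), 3 (0.126) or 4 (0.0772), and that at 10 Gy likewise (0.103, 0.13 and 0.0937), but both passed with the block (adjusted p = 0.00055 and 0.000176; 3.43e-05 and 6.26e-06 without animal 1).

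In *A. cahirinus* at 12 d Plaur was at 10.1, 10.6, 11.7 and 12.1 CPM in untreated cells, 7.34, 7.31, 10.8 and 9.46 CPM after 10 Gy, and 3.82, 3.74, 4.29 and 5.06 CPM after 20 Gy. Every 20 Gy library was below every other irradiated or untreated one. The fall at 20 Gy was 2.39-fold to 2.83-fold by animal, with a log2 change of -1.39 ± 0.14 (adjusted p = 0.000424), and it held without any one animal (highest adjusted p 0.0127). At 10 Gy the change was -0.35 (adjusted p = 0.212, 0.0402 with the block, and 0.162 with the block without animal 1). Between the doses Plaur was lower at 20 Gy by -1.04 ± 0.19 on the log2 scale (adjusted p = 0.0656, 0.00293 with the block, and 0.0153 with the block without animal 1).

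Wild mice at 12 d had 25.6, 23.6, 53.9 and 39 CPM of Plaur in untreated cells and 45.2, 26.8, 120 and 43 CPM after 20 Gy. Animal 3 was the highest in both groups, and the groups overlapped. The log2 change was 0.76 ± 0.48 at 20 Gy (adjusted p = 0.541, and 0.0694 with the block), which did not pass. At 24 h Plaur was near its untreated level at 20 Gy in all populations: the log2 changes were 0.16 (C56BL6), 0.07 (wild) and 0.06 (*A. cahirinus*; adjusted p = 0.581, 1 and 0.92). At 10 Gy and 24 h it rose in C56BL6 mice with the block (log2 change 0.21, adjusted p = 0.0333), and without animal 1 the blocked changes were 0.25 (adjusted p = 0.000764) at 10 Gy and 0.19 (0.02) at 20 Gy.

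The change of Plaur at 20 Gy and 12 d differed between populations in a test of the difference itself. It was lower in *A. cahirinus* than in C56BL6 mice by -2.77 ± 0.40 on the log2 scale (adjusted p = 0.000609) and than in wild mice by -2.12 ± 0.53 (adjusted p = 0.045). The first held without any one animal number (highest adjusted p 0.023). The second was lost without number 1 (adjusted p = 0.317) or 4 (0.224), the 2 wild numbers that may share an animal, and passed with the block (0.000511) and with the block without number 1 (0.0124).

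**Figure D2:**
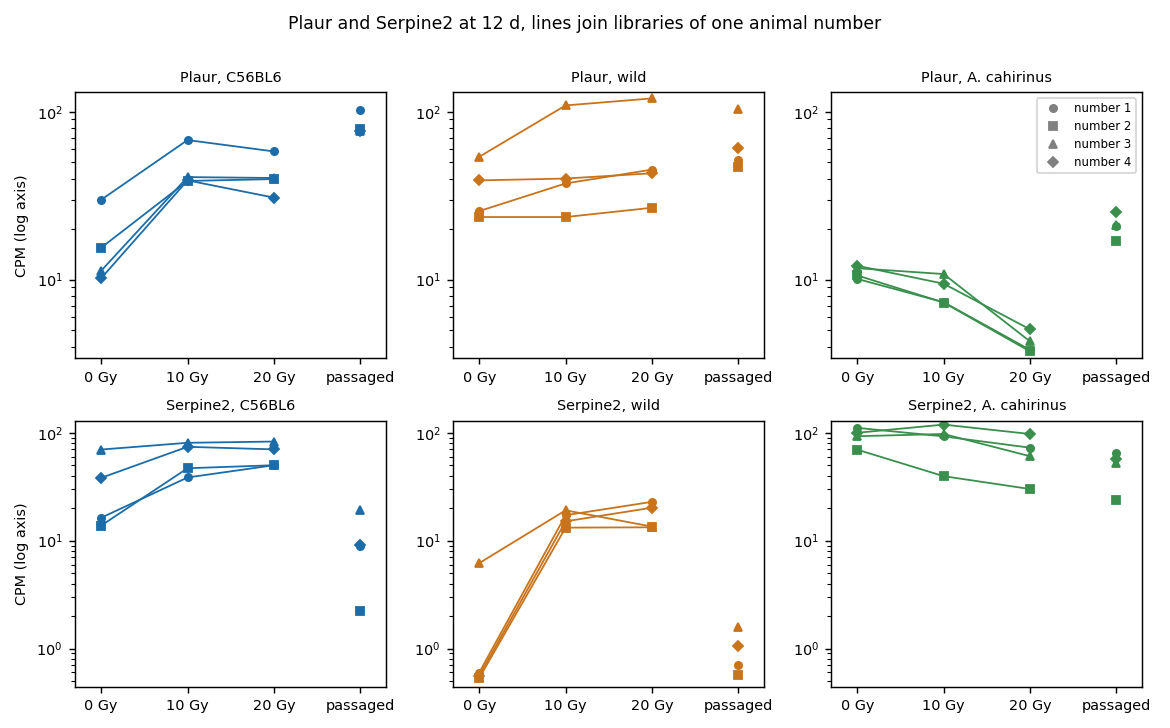
Plaur and Serpine2 at 12 d in each animal (CPM, log axis), by population, with a line joining the untreated, 10 Gy and 20 Gy libraries of one animal number and passaged libraries set apart at the right. At 20 Gy Plaur is below its untreated level in every animal of *A. cahirinus* and above it in every C56BL6 animal, and untreated wild animal 3 has 6.19 CPM of Serpine2 against 0.534 to 0.599 CPM in the others.

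Plat, which makes plasmin mainly on fibrin, was lower after irradiation in most animals, other than at 10 Gy and 12 d in *A. cahirinus*. At 24 h in C56BL6 mice it was at 31.1, 22.1, 50.7 and 49.9 CPM in untreated animals 1 to 4 and at 25.2, 16.7, 30.5 and 30.1 CPM after 20 Gy. The groups overlapped, yet each animal was lower, by 1.23-fold to 1.66-fold. Log2 changes at 20 Gy were -0.58 (C56BL6), -0.51 (wild) and -0.41 (*A. cahirinus*; adjusted p = 0.581, 1 and 0.622), and all 3 passed with the block (adjusted p = 0.000273, 0.0134 and 0.00323). With the block Plat also fell at 10 Gy in C56BL6 (-0.36, adjusted p = 0.00985) and *A. cahirinus* cells (-0.49, adjusted p = 7.5e-05). Blocked and without animal 1, Plat changed by -0.64 at 20 Gy (adjusted p = 2.21e-06) and -0.43 at 10 Gy (3.29e-05) in C56BL6 mice, and by -0.42 (0.0214) and -0.40 (0.0156, and 0.419 with animal 1 kept) in wild mice. Over both doses no library of an irradiated animal exceeded its own untreated one at 24 h: 12 of 12 pairs were lower at 10 Gy and 12 of 12 at 20 Gy.

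At 12 d Plat in C56BL6 mice was at 204, 130, 213 and 191 CPM in untreated cells, 94.5, 72.6, 127 and 120 CPM after 10 Gy, and 80.1, 65.2, 116 and 118 CPM after 20 Gy. Irradiated and untreated groups did not overlap. Plat changed by -0.92 ± 0.23 on the log2 scale at 20 Gy (adjusted p = 0.021) and by -0.79 ± 0.21 at 10 Gy (adjusted p = 0.0341). Without animal 3 or 4 the 20 Gy call was lost (adjusted p = 0.0845 and 0.0649), and without 1, 3 or 4 the 10 Gy call (0.0569, 0.123 and 0.112), while both passed with the block (0.000943 and 0.00051; 0.000142 and 0.000163 without animal 1). The summed fibroblast markers moved the same way, from 29800 to 49500 CPM in untreated to 11000 to 14900 CPM in 20 Gy libraries, and their part in the result was not tested. In wild mice Plat was at 261, 490, 273 and 249 CPM in untreated cells and 183, 381, 123 and 169 CPM after 20 Gy, lower in each animal though the groups overlapped, with a log2 change of -0.55 (adjusted p = 0.589, 0.0333 with the block, and 0.123 with the block without animal 1). At 10 Gy the wild change was -0.56 (adjusted p = 0.581, 0.0499 with the block, and 0.151 with the block without animal 1). In *A. cahirinus* the 12 d change at 20 Gy was -0.19 (adjusted p = 0.552), with animal 2 higher and the other three lower. At 10 Gy animals 1 to 4 there had 1.09-fold, 1.53-fold, 1.16-fold and 0.992-fold the untreated level. There the 20 Gy level was below the 10 Gy level with the block (-0.40, adjusted p = 0.0256), a call lost without animal 1 (0.135).

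Plau, the protease that binds Plaur, had a higher mean per length than Plat in all 7 C56BL6 groups, and the 2 overlapped in untreated cells at 12 d. In mean CPM Plat was the higher of the 2 in those untreated cells (185 against 83.3). The order there rests on the counted lengths, 6241 bp for Plat and 2367 bp for Plau. At 24 h in C56BL6 mice Plau was at 180, 190, 282 and 272 CPM in untreated cells and at 139, 151, 229 and 238 CPM after 20 Gy. Each animal was lower, by 1.14-fold to 1.29-fold, and the log2 change was -0.28 (adjusted p = 0.773, 0.000615 with the block, and 0.000293 with the block without animal 1). In wild mice and *A. cahirinus* Plau at 24 h passed neither way.

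At 12 d Plau was at 112, 92.6, 68 and 60.9 CPM in untreated C56BL6 cells and at 130, 134, 86.1 and 113 CPM after 10 Gy. Each animal was higher, the groups overlapped, and the log2 change was 0.52 (adjusted p = 0.122, 0.00735 with the block, and 0.00162 with the block without animal 1). After 20 Gy it was at 91.5, 122, 85.6 and 98.4 CPM, higher in animals 2 to 4 and lower in animal 1, with a log2 change of 0.30 (adjusted p = 0.306, 0.114 with the block, and 0.00185 with the block without animal 1). In the other populations Plau fell with the block. In wild mice it went from 41.9, 50.5, 32.7 and 53.1 CPM to 30.5, 41.5, 25.3 and 27.7 CPM at 20 Gy (log2 change -0.49, adjusted p = 0.35, 0.0373 with the block, and 0.137 with the block without animal 1). In *A. cahirinus* it went from 45.2, 31.7, 47 and 47.9 CPM to 25.3, 22.9, 31.2 and 45.4 CPM (log2 change -0.45, adjusted p = 0.174, 0.0151 with the block, and 0.0777 with the block without animal 1). Animal 4 of *A. cahirinus* was nearly level, and the other three were lower, by up to 1.79-fold. The change in *A. cahirinus* minus that in C56BL6 mice was -0.75 (adjusted p = 0.11, and 0.0141 with the block). In wild minus C56BL6 mice it was -0.78 and did not pass (adjusted p = 1, and 0.152 with the block).

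Serpine2, the inhibitor of thrombin and both activators, had the largest log2 change of the 6 genes in wild mice at 20 Gy, at both times. Its mouse promoter is shown for that reason. The 250 bases before the RefSeq start on GRCm38.p6 (chr1:79858666-79858915, minus strand) were 78.8% G or C, with 6 GC boxes in capitals, some of which overlap, and no AP-1, CRE or TATAAA match:
Serpine2: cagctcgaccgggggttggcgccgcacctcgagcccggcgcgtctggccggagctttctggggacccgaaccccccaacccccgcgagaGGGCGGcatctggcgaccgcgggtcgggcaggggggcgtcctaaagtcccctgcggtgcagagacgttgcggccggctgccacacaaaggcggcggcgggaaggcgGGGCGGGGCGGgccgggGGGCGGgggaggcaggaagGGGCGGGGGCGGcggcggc

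At 24 h Serpine2 in C56BL6 mice was at 9.67, 1.80, 15.6 and 7.32 CPM in untreated cells, 21, 4.19, 22.3 and 15.2 CPM after 10 Gy, and 24.1, 6.21, 28.4 and 19 CPM after 20 Gy. The groups overlapped because animals differed more than doses: animal 2 was the lowest in each group and animal 3 the highest. Within animals the level was 1.82-fold to 3.45-fold higher at 20 Gy, with a log2 change of 1.19 ± 0.62 (adjusted p = 0.596, and 5.86e-06 with the block), and 0.88 at 10 Gy (adjusted p = 0.000609 with the block, not passed without it). Blocked and without animal 1 these changes were 1.22 (adjusted p = 5.79e-07) and 0.83 (1.69e-05). In wild mice it went from 5.55, 0.739, 0.618 and 1.03 CPM to 10.7, 3.29, 6.92 and 6.41 CPM at 20 Gy, 1.93-fold to 11.2-fold higher by animal. The wild log2 change was 1.80 ± 0.77 (adjusted p = 0.842, and 0.00188 with the block). Untreated wild animal 1, whose 24 h libraries carried smooth muscle and pericyte markers, was the highest of its group, and the blocked change without it was 2.77 (adjusted p = 3.11e-05), and 2.04 at 10 Gy (0.000856, and 0.201 with animal 1 kept). In *A. cahirinus* Serpine2 went from 83.6, 40.9, 69 and 84.4 CPM to 106, 42.7, 90.3 and 121 CPM at 20 Gy, 1.04-fold to 1.43-fold higher by animal. The log2 change was 0.38 at 20 Gy (adjusted p = 0.617, and 0.0089 with the block) and 0.26 at 10 Gy (adjusted p = 0.768, 0.0258 with the block, and 0.119 with the block without animal 1).

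At 12 d Serpine2 in wild mice was at 0.599, 0.534, 6.19 and 0.559 CPM in untreated animals 1 to 4, 17.2, 13.2, 19.1 and 15.1 CPM after 10 Gy, and 22.9, 13.3, 13.5 and 20.2 CPM after 20 Gy. The groups did not overlap, and the untreated level of animal 3 was far above that of the others. By animal the level was 38.2-fold, 24.9-fold, 2.18-fold and 36.1-fold higher at 20 Gy. The untreated levels of animals 1 to 4 rested on only 13, 12, 181 and 16 reads. The log2 change was 3.17 ± 0.88 at 20 Gy (adjusted p = 0.183, and 0.0196 with the block) and 3.03 at 10 Gy (adjusted p = 0.207, and 0.0104 with the block). Without animal 3 and without the block the changes were 5.08 (adjusted p = 0.0148) and 4.76 (0.00327), in fits where numbers 1 and 4 may share an animal. With the block and without animal 1 the changes were 3.40 (adjusted p = 0.0951) and 3.42 (0.0397), so the blocked 20 Gy call was lost there.

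In C56BL6 mice at 12 d Serpine2 was at 16.3, 13.8, 69.9 and 38.2 CPM in untreated cells and at 50, 50, 82.9 and 70.1 CPM after 20 Gy. All animals were higher, by 1.19-fold to 3.62-fold, and the groups overlapped. The log2 change was 0.91 ± 0.50 at 20 Gy (adjusted p = 0.207, 0.0117 with the block, and 0.0169 with the block without animal 1) and 0.84 at 10 Gy (adjusted p = 0.283, 0.00669 and 0.006 in the same order). In *A. cahirinus* it went the other way, from 111, 69.7, 92.9 and 100 CPM to 72.7, 30.1, 60.6 and 97.4 CPM at 20 Gy. All animals were lower, by 1.03-fold to 2.32-fold, and the log2 change was -0.51 (adjusted p = 0.258, 0.0223 with the block, and 0.0816 with the block without animal 1). The 20 Gy level there was below the 10 Gy level with the block (-0.42, adjusted p = 0.0158), a call lost without animal 1 (0.0686).

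The 20 Gy change of Serpine2 at 12 d was lower in *A. cahirinus* than in wild mice by -3.64 ± 0.91 on the log2 scale (adjusted p = 0.0452). This call was lost without number 1 (adjusted p = 0.356), 2 (0.0713) or 4 (0.238), and passed with the block (0.00443; 0.0451 without number 1). Against C56BL6 mice the difference was -1.42 ± 0.63 (adjusted p = 0.126, and 0.00355 with the block). At 24 h the differences were -0.81 against C56BL6 mice and -1.43 against wild mice (adjusted p = 0.815 and 1), and both passed with the block (0.000279 and 0.00619). The ratios of both activators to Serpine2 were described without a test. They can be compared within a table only, because the lengths of the gene models differ between the 2 tables. The level of Plat per kb over that of Serpine2 had a median of 585 in untreated wild cells at 12 d (58.7 to 1220) and of 11.6 after 20 Gy (10.6 to 38). In C56BL6 mice this ratio had a median of 9.58 in untreated (4.06 to 16.6) and 1.98 in 20 Gy cells (1.72 to 2.25), and in *A. cahirinus* 0.558 (0.493 to 0.763) and 0.816 (0.395 to 1.65). The ranges of untreated and 20 Gy cells did not overlap in either mouse population and overlapped in *A. cahirinus*. For Plau over Serpine2 the ranges were 18.5 to 332 in untreated and 4.66 to 10.9 in 20 Gy wild cells, which did not overlap. They overlapped in C56BL6 mice (3.4 to 23.9 and 3.62 to 8.54) and in *A. cahirinus* (0.403 to 0.504 and 0.348 to 0.757).

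**Figure D3:**
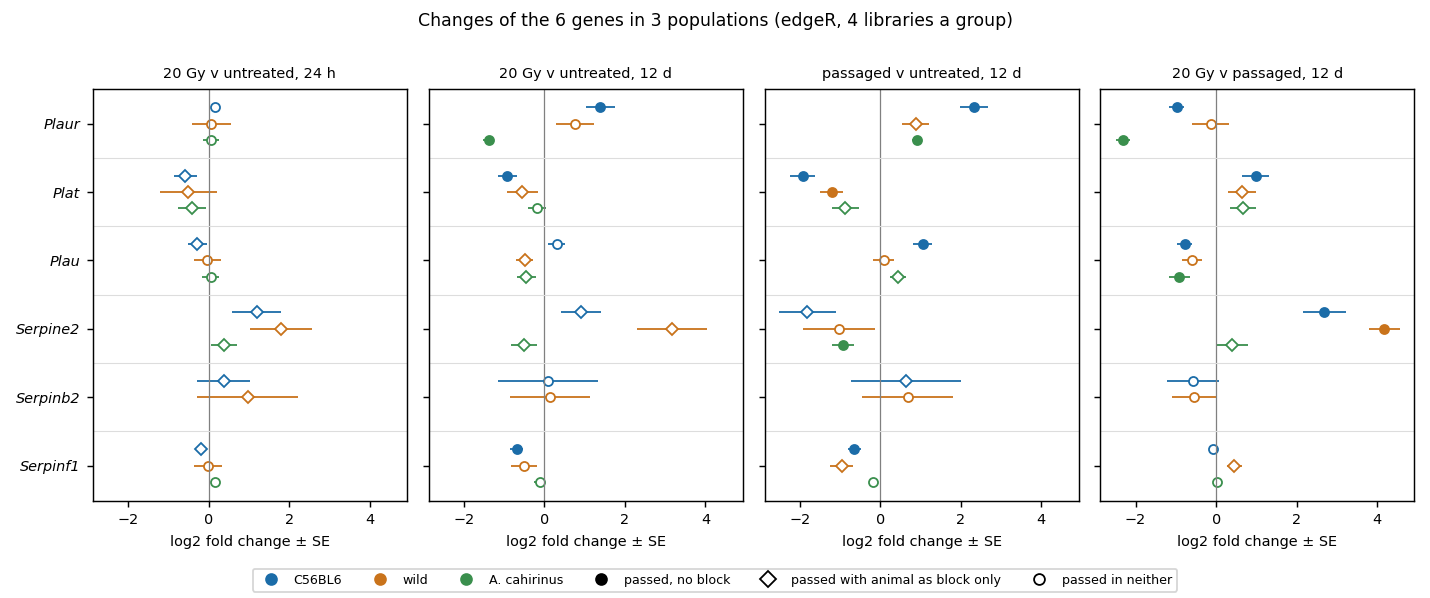
Log2 change of each member with its standard error in 4 comparisons, by population. Filled circles passed the test without a block, open diamonds passed with the animal as a block only, and open circles passed neither way. Plaur at 20 Gy and 12 d is at 1.38 in C56BL6 mice and -1.39 in *A. cahirinus*.

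Serpinb2, an inhibitor of urokinase that is abundant in stressed and differentiating epithelium and in macrophages, varied widely between animals. Its mouse promoter is shown as the only one of the 4 members with a window that holds a TATAAA match, beginning 29 bases before the first of 2 RefSeq starts on GRCm38.p6 (chr1:107511173-107511422, plus strand), in capitals:
Serpinb2: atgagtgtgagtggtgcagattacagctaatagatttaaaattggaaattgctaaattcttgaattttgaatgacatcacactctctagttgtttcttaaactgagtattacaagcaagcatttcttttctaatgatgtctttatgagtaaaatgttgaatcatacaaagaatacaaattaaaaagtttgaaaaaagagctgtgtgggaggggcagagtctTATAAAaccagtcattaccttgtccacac

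In C56BL6 mice at 12 d Serpinb2 was at 33, 0.843, 0.788 and 0.626 CPM in untreated animals 1 to 4, 12.5, 4.91, 8 and 5.52 CPM after 10 Gy, and 14.2, 7.07, 8.36 and 6.47 CPM after 20 Gy. Animals 2 to 4 were 8.39-fold to 10.6-fold higher at 20 Gy, and animal 1 was 2.32-fold lower. The untreated 12 d library of animal 1 also had the highest sum of keratinocyte markers of the 28 C56BL6 libraries, 839 CPM, with Krt14 at 419 and Krt5 at 413 CPM. The part of these markers' cells in its Serpinb2 level was not tested. With all animals the log2 change was 0.08 at 20 Gy (adjusted p = 0.97) and -0.14 at 10 Gy (0.95). Without animal 1 it was 3.31 (adjusted p = 0.000267) and 3.07 (0.000335), on 3 animals a group, and with the block but with animal 1 kept it did not pass (adjusted p = 0.107 and 0.125).

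**Figure D4:**
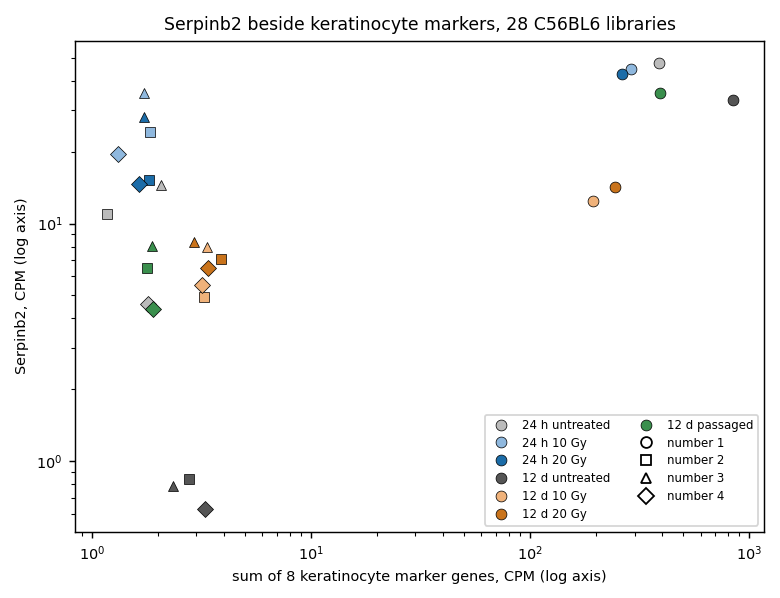
Serpinb2 (CPM) against the sum of 8 keratinocyte markers (CPM) in the 28 C56BL6 libraries, both on log axes, by group. The 7 libraries of animal 1 lie at 194 CPM of markers or more, and the libraries of animals 2 to 4 lie at 3.9 CPM or less.

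At 24 h Serpinb2 in C56BL6 mice was at 47.4, 11, 14.5 and 4.58 CPM in untreated cells and 42.5, 15.2, 28 and 14.6 CPM after 20 Gy, higher in animals 2 to 4 and lower in animal 1. It rose with the block at 20 Gy (log2 change 0.63, adjusted p = 0.0342) and at 10 Gy (1, adjusted p = 0.0245), and the blocked changes without animal 1 were 0.98 (adjusted p = 3.39e-05) and 1.45 (1.75e-08). In wild mice it was at 0.754, 32.9, 3.41 and 9.03 CPM in untreated cells and 4.02, 67.6, 3.67 and 13.8 CPM after 20 Gy, with animal 2 highest in both. The wild change passed with the block (0.92, adjusted p = 0.0231, and 0.68, 0.00851 without animal 1). At 10 Gy it passed only with the block without animal 1 (1.06, adjusted p = 7.14e-05, and 0.28 with animal 1 kept). At 12 d wild Serpinb2 went from 0.553, 4.36, 21.1 and 0.734 CPM to 7.16, 7.64, 7.66 and 6.44 CPM at 20 Gy. Animal 3 was lower and the others higher after 20 Gy, the 4 irradiated libraries lay close together, and the change did not pass with or without the block. In *A. cahirinus* Serpinb2 was all but undetected: 20 reads in 28 libraries, at most 4 reads or 0.125 CPM in one, with 2 libraries over the floor of 3 counts. Its annotation there is a gene model of 2035 bp, and no fold was computed.

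Serpinf1, the secreted serpin without a known protease target, was the most abundant of the 6 per length. At 12 d in C56BL6 mice it was at 1700, 2630, 2360 and 2520 CPM in untreated cells, 1350, 1440, 1360 and 1700 CPM after 10 Gy, and 1220, 1430, 1430 and 1450 CPM after 20 Gy. The 20 Gy and untreated groups did not overlap. The fibroblast markers named beside Plat were lower in the same libraries, and their part was not tested. The log2 change was -0.69 ± 0.16 at 20 Gy (adjusted p = 0.0162) and -0.61 ± 0.17 at 10 Gy (adjusted p = 0.0366). Both calls were lost without animal 2 (adjusted p = 0.0945 and 0.173), 3 (0.106 and 0.21) or 4 (0.0857 and 0.106), and passed with the block (0.00236 and 0.00495; 0.000281 and 0.000895 without animal 1). In wild mice Serpinf1 went from 3960, 5220, 2070 and 3330 CPM to 2860, 3130, 1870 and 2310 CPM at 20 Gy, with a log2 change of -0.50 (adjusted p = 0.555, and 0.151 with the block). In *A. cahirinus* the 20 Gy libraries lay at 793 to 1090 CPM and the untreated ones at 895 to 1180 CPM. All 12 animal numbers of the 3 populations were lower at 20 Gy than untreated at 12 d, where wild numbers 1 and 4 may share an animal. The change in *A. cahirinus* (-0.12, adjusted p = 0.523) was smaller than that in C56BL6 mice by 0.58 (adjusted p = 0.088, and 0.00531 with the block). At 24 h Serpinf1 fell with the block in C56BL6 mice at 20 Gy (-0.19, adjusted p = 0.017, and -0.16, 0.0193 without animal 1). In *A. cahirinus* it passed at 20 Gy only with the block without animal 1 (0.21, adjusted p = 0.0234, and 0.0875 with animal 1 kept).

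The 12 d series also set untreated passaged cells beside untreated cells that were not labelled as passaged. Plat was lower in passaged cells in 12 of 12 animals and Plaur higher in 12 of 12. In C56BL6 mice 2 of 6 members rose and 2 fell (49.6% of all genes passed), and 3 rose and 3 fell with the block (60.1%). In wild mice 1 of 6 fell (10.7% of all genes), and 1 rose and 2 fell with the block (31.9%). In *A. cahirinus* 1 of 5 rose and 1 fell (25.8% of all genes), and 2 rose and 2 fell with the block (49.5%). The marker sums differed too: those of fibroblasts were 17800 to 26000 CPM in passaged and 29800 to 49500 CPM in untreated C56BL6 cells, and 20300 to 27900 and 31200 to 37500 CPM in *A. cahirinus*, with no overlap. The smooth muscle and pericyte sum was 579 to 799 CPM in passaged and 202 to 323 CPM in untreated C56BL6 cells, and the other populations overlapped in it. The part of these markers' cells in the results on passaging was not tested.

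Plaur in passaged C56BL6 cells was at 103, 79.1, 76.7 and 76.4 CPM, above every other 12 d C56BL6 library (log2 change 2.33 ± 0.34 against untreated, adjusted p = 0.00117). In passaged *A. cahirinus* cells it was at 20.8, 17, 21.2 and 25.3 CPM, above every untreated and irradiated 12 d library there (0.91 ± 0.13, adjusted p = 0.00261). In wild mice it was 1.57-fold to 2-fold higher by animal (0.88, adjusted p = 0.131, 0.00267 with the block, and 0.0227 with the block without animal 1). The rise in *A. cahirinus* was smaller than that in C56BL6 mice by -1.43 ± 0.37 (adjusted p = 0.0112). This difference was lost without number 2 (adjusted p = 0.0764), 3 (0.0927) or 4 (0.0568) and passed with the block (0.000436).

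Plat in passaged cells was at 31.6, 29.9, 63.4 and 68.8 CPM in C56BL6 mice, below all other 12 d groups except for 1 overlap with the 20 Gy libraries (log2 change -1.93 ± 0.31 against untreated, adjusted p = 0.00182). In wild mice it was 1.96-fold to 2.54-fold lower by animal (-1.21 ± 0.28, adjusted p = 0.0359), a call that was lost without animal 1 (0.202), 3 (0.061) or 4 (0.149) and passed with the block (0.00218; 0.0192 without animal 1). In *A. cahirinus* the change was -0.87 (adjusted p = 0.087, and 0.000208 with the block). Plau rose in passaged C56BL6 cells to 121, 163, 189 and 217 CPM (1.05 ± 0.23, adjusted p = 0.00693; 0.0552 without animal 3) and, with the block, in *A. cahirinus* (0.45, adjusted p = 0.12 without and 0.00132 with it).

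Serpine2 was lower in passaged than in untreated *A. cahirinus* cells, at 65.3, 24.0, 52 and 56.9 CPM (-0.93 ± 0.28, adjusted p = 0.0429), a call lost without animal 1 (0.124), 3 (0.165) or 4 (0.136) and kept with the block (0.000421). In C56BL6 mice it was at 8.97, 2.25, 19.2 and 9.11 CPM (-1.81 ± 0.71, adjusted p = 0.0628, 0.00152 with the block, and 3.7e-05 with the block without animal 1). In wild mice it stayed at 0.699, 0.564, 1.59 and 1.05 CPM, and the sign of the change against untreated cells depended on animal 3: -1.02 with it and 0.45 without it (adjusted p = 0.51 and 0.435). Serpinf1 fell in passaged C56BL6 cells (-0.65 ± 0.16, adjusted p = 0.0108; 0.0529, 0.0811 and 0.0679 without animal 2, 3 or 4) and, with the block, in wild cells (-0.96, adjusted p = 0.0657, 0.0259 with the block, and 0.122 with the block without animal 1). Serpinb2 in passaged C56BL6 cells was at 35.5, 6.52, 8.03 and 4.35 CPM and passed with the block (2.07, adjusted p = 0.0206) and without animal 1 (3.07, adjusted p = 0.000157).

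Set against passaged cells, 20 Gy cells at 12 d had more Serpine2 and Plat and less Plau in 12 of 12 animal numbers each. Wild numbers 1 and 4 among them may share an animal. In C56BL6 mice 2 of 6 members were higher and 2 lower (41.6% of all genes passed; 4 of 6 with the block, 56.1%). In wild mice 1 of 6 was higher (10.5% of all genes; 3 of 6 with the block, 38%), and in *A. cahirinus* 2 of 5 were lower (42.5%; 4 of 5 with the block, 56%). Serpine2 was higher by 4.18 ± 0.39 on the log2 scale in wild mice (adjusted p = 0.00484; 0.0816 without animal 1 and 0.0632 without animal 4, and 0.000785 with the block without animal 1) and by 2.69 ± 0.54 in C56BL6 mice (adjusted p = 0.00485). In *A. cahirinus* the change was 0.40 (adjusted p = 0.438, and 0.0262 with the block). Plaur was lower by -2.31 ± 0.17 in *A. cahirinus* (adjusted p = 6.28e-05), 4.55-fold to 5.45-fold by animal, and by -0.98 ± 0.19 in C56BL6 mice (adjusted p = 0.00418). Plau was lower by -0.92 ± 0.26 in *A. cahirinus* (adjusted p = 0.0218; 0.129 without animal 1 and 0.112 without animal 3) and by -0.78 ± 0.19 in C56BL6 mice (adjusted p = 0.0106; 0.0777 without animal 3 and 0.0616 without animal 4), and in wild mice only with the block without animal 1 (-0.73, adjusted p = 0.0448, and 0.0651 with animal 1 kept). Plat was higher by 0.98 ± 0.33 in C56BL6 mice (adjusted p = 0.0399; 0.0606 to 0.0993 without any one animal), and with the block also in wild mice (adjusted p = 0.0116, and 0.0404 without animal 1) and *A. cahirinus* (0.0423, and 0.08 without animal 1). With the block Serpinf1 was higher in wild mice (0.45, adjusted p = 0.172, 0.0274 with the block, and 0.115 with the block without animal 1).

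Differences between populations in the 20 Gy change were tested as interactions. At 24 h, 0 of 16 member tests passed (edgeR, 1 at an unadjusted p under 0.05, 0 by DESeq2), where 2.09% of all genes passed for *A. cahirinus* against C56BL6 mice, 0.0% for *A. cahirinus* against wild mice and 0.0% for wild against C56BL6 mice. With the block 3 of 5 passed in the first (16.8% of all genes) and 1 of 5 in the second (7.25%): Serpine2 in both, and Plau (0.34, adjusted p = 0.00294) and Serpinf1 (0.33, adjusted p = 0.00725) against C56BL6 mice. Serpine2 differed between wild and C56BL6 mice only with the block without number 1 (1.5, adjusted p = 0.014, and 0.404 with number 1 kept). At 12 d, 1 of 5 members differed between *A. cahirinus* and C56BL6 mice (18.8% of all genes) and 5 of 5 with the block (38%), Plat among them (0.77, adjusted p = 0.0246, and 0.062 without number 1). Between *A. cahirinus* and wild mice 2 of 5 differed (3.31% of all genes), likewise with the block (23.4%). Between the 2 mouse populations 0 of 6 members were called (edgeR), where 0.0% of all genes passed. Of these 6 tests 2 had an unadjusted p under 0.05, and 0 passed by DESeq2. In the effect of passaging 1 of 5 differed between *A. cahirinus* and C56BL6 mice (27.7% of all genes) and 3 of 5 with the block (45.2%): Plaur, Plat (1.07, adjusted p = 0.00522) and Serpinf1 (0.47, adjusted p = 0.0352). Plau and Serpine2 joined them with the block without number 1 (-1.02 and 1.03, adjusted p = 0.00465 and 0.00696, and 0.121 and 0.0635 with number 1 kept). Between *A. cahirinus* and wild mice 0 of 5 differed in it (3.46% of all genes; 1 at an unadjusted p under 0.05, 0 by DESeq2) and 1 of 5 with the block (23.8%), Serpinf1 (0.79, adjusted p = 0.158, 0.0429 with the block, and 0.165 with the block without number 1). The 2 interactions with *A. cahirinus* share its libraries.

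Untreated wild and C56BL6 cells differed in 1 of 6 members at 24 h, where 5.7% of all genes passed, and in 0 of 6 at 12 d, where 2.93% did (edgeR, 4 at an unadjusted p under 0.05, 2 by DESeq2). Plau was lower in wild cells at 24 h, 149, 87.0, 82.2 and 54.8 CPM against 180, 190, 282 and 272 CPM, with no overlap (log2 difference -1.30 ± 0.31, adjusted p = 0.048). This call was lost without number 2 (adjusted p = 0.166), 3 (0.225) or 4 (0.165). Serpine2 at 12 d was lower in wild than in C56BL6 cells by -4.13 ± 1.02 (adjusted p = 0.0853), with no overlap between 0.534 to 6.19 and 13.8 to 69.9 CPM.

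Other genes of the plasmin system were followed in 4 lists: 5 genes of plasminogen and its receptors, 10 partners and clearance receptors of the urokinase receptor, 9 other inhibitors and 11 substrates activated by urokinase or plasmin. At 20 Gy against untreated at 12 d, 4 of 11 tested substrates rose and 0 fell in C56BL6 mice (median log2 change 0.05; 26.5% of all genes passed), and 3 of 11 rose and 0 fell in *A. cahirinus* (0.16; 31.8%). These shares of all genes are the background of the other 3 lists at 20 Gy as well. The list holds 4 pro-metalloproteinases, a class that plasmin can activate: Mmp3, Mmp9, Mmp10 and Mmp13. Mmp10 (stromelysin-2) went from 0 to 0.17 CPM to 0.911 to 2.46 CPM in C56BL6 mice (log2 change 4.47 ± 0.83, adjusted p = 0.00734) and from 0.101 to 0.741 CPM to 1.45 to 7.57 CPM in *A. cahirinus* (3.61 ± 0.69, adjusted p = 0.00563). Mmp13 (collagenase 3) rose in both as well (4.18 and 2.13, adjusted p = 0.0137 and 0.0239). Mmp3 (stromelysin-1) and Mst1, a ligand precursor related to hepatocyte growth factor, rose in C56BL6 mice (1.90 and 1.73, adjusted p = 0.0205 and 0.00766), and Mmp9 (gelatinase B) in *A. cahirinus* (1.83, adjusted p = 0.00288). Mmp3 in *A. cahirinus* was at 1.99 to 32.3 CPM untreated and 17.6 to 49.9 CPM after 20 Gy. Mmp9 in C56BL6 mice was at 0.063 to 1.29 and 0.889 to 1.61 CPM. Both pairs of ranges overlapped, and neither change passed. Wild Mmp3 was at 2.23 to 1760 CPM untreated and 1.16 to 983 CPM after 20 Gy. Untreated levels of Mmp10, Mmp13 and Mst1 in C56BL6 mice were near the floor, so those folds depend on the prior count of the fit.

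Of the other inhibitors 2 of 6 rose in C56BL6 mice and 1 rose and 1 fell of 3 in *A. cahirinus* (medians 0.19 and -0.12). Serpini1, the neuroserpin that inhibits Plat, rose in both: from 0.715 to 1.40 CPM to 2.89 to 6.46 CPM in C56BL6 mice (2.03 ± 0.33, adjusted p = 0.00455) and from 2.42 to 3.23 CPM to 4.37 to 7.79 CPM in *A. cahirinus* (1.17 ± 0.21, adjusted p = 0.00475). Serpinf2, the plasmin inhibitor, rose in C56BL6 mice (2.08, adjusted p = 0.0058) at levels of at most 0.35 CPM. In *A. cahirinus* it was at 0 to 0.0675 CPM untreated and 0.0951 to 0.313 CPM after 20 Gy, near the floor with no overlap. The wild ranges overlapped (0 to 0.14 and 0.0375 to 0.202 CPM). A2m, a broad protease trap, fell in *A. cahirinus* from 19.4 to 30.9 CPM to 1.36 to 4.05 CPM (-3.36 ± 0.35, adjusted p = 0.00046), and its change differed from that in C56BL6 mice (-3.19, adjusted p = 0.0031) and wild mice (-4.50, adjusted p = 0.0123), although A2m was at most 0.487 and 0.937 CPM in the untreated and 20 Gy libraries of those mice. Of the 10 receptor partners 1 rose and 2 fell in C56BL6 mice and 2 rose and 2 fell in *A. cahirinus* (medians -0.08 and 0.05). Vtn (vitronectin, a matrix ligand of Plaur) fell in C56BL6 mice from 0.851 to 21.2 CPM to at most 0.264 CPM (-6.17 ± 1.23, adjusted p = 0.0095), and with levels so near the floor this value too depends on the prior count. Itgb3, an integrin chain of the vitronectin receptor, fell in *A. cahirinus* (-1.48, adjusted p = 0.00148). Of plasminogen and its receptors 0 of 4 passed in C56BL6 mice and 1 of 4 fell in *A. cahirinus* (medians 0.02 and -0.02). In wild mice, where edgeR called 0.0694% of all genes at 20 Gy, the medians of the 4 lists in the order first given were 0.06, -0.06, -0.45 and 0.09.

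Passaged against untreated cells gave 0 higher and 2 lower of 7 substrates in C56BL6 mice and 1 higher and 4 lower of 10 in *A. cahirinus* (medians -0.24 and -0.86), where 49.6% and 25.8% of all genes passed. Hgf, the growth factor that urokinase can activate, fell in both (-1.43, adjusted p = 0.0421, and -2.55, adjusted p = 0.0315). Mmp3 fell in C56BL6 mice to at most 0.204 CPM (-4.10, adjusted p = 0.00334), and Ltbp1, which holds latent TGF-beta in the matrix, and Pdgfd fell in *A. cahirinus* (-1.11, adjusted p = 0.000806, and -2.50, adjusted p = 0.0492). The integrin chains Itga5 and Itgav rose in C56BL6 mice (1.75, adjusted p = 0.0107, and 1.20, adjusted p = 0.000329), where Lrpap1, the chaperone of the clearance receptor Lrp1, fell (-1.05, adjusted p = 0.000216). In *A. cahirinus* Itga5 (534 to 711 CPM untreated, 740 to 1070 passaged) and Itgav (264 to 315 and 555 to 622 CPM) were higher too, with no overlap. Both ranges overlapped in wild mice. Itgb3 fell in *A. cahirinus* (-1.13, adjusted p = 0.00438). Serping1, the C1 inhibitor, fell in C56BL6 mice from 57.7 to 821 CPM to 0.915 to 26.7 CPM (-4.94, adjusted p = 0.00737). It was lower in passaged *A. cahirinus* cells as well, at 37.2 to 53 CPM against 66.6 to 95.7 CPM in untreated cells. Vtn in passaged C56BL6 cells was at or under 0.0363 CPM, below the floor, and no fold is given.

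Genes of like pattern were sought among 8990 symbols by the mean over the 3 populations of the Pearson correlation of log2 CPM across 28 libraries each, after removing the mean of each time. These values are a description, and the libraries share animals. Plaur was most like Lpcat4 (0.83), Lrrfip1 (0.82) and Phgdh (0.82), Plat like Gas1 (0.80), Sorcs2 (0.78) and Tbl1xr1 (0.76), and Serpinf1 like Tm7sf3 (0.79), Pcolce (0.78) and Efemp2 (0.77). The closest genes were less alike for Plau (Plcb3 0.70, Smtn 0.67 and Mycl 0.67) and Serpine2 (Ak1 0.69, Clba1 0.64 and 2310022A10Rik 0.63). Serpinb2 was left out because its mean was under 5 CPM in *A. cahirinus*.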

How the data were processed

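RNA was sequenced from 84 libraries of cultured primary skin fibroblasts (stranded mRNA libraries of polyA RNA, per the labels' protocols). The deposited values are whole-number read counts per gene, which the authors made with featureCounts 2.0.3, per the file headers, by gene identifier on GRCm39 (Ensembl release 108) for the mice and by gene name on the AcoCah2 assembly for *A. cahirinus*. Per the file headers, no strand, multi-mapping or overlap option was set, so reads of an antisense or overlapping gene cannot be told apart from those of a member. Trim Galore and HISAT2 are named in the submitters' processing notes, and their versions are not given in the sources used here.

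Groups and animal numbers were taken from the sample labels. Counts were tested per comparison with edgeR 4.0.16 in R 4.3.3 (filterByExpr, TMM factors, quasi-likelihood test, Benjamini-Hochberg adjustment over all genes kept, threshold 0.05), fitting the libraries of the groups compared. A standard error is the log2 change divided by the square root of the F statistic. Interactions with *A. cahirinus* used the 18109 symbols present a single time in both tables, and size factors were computed per table. The scripts were tested on simulated data.

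Same-numbered libraries share an animal code in their names, and their deviations from group means correlated in each of 21 comparisons (mean 0.55 to 0.92, lowest single pair 0.42) against -0.3 to -0.12 between other numbers. Alternatives were relative log expression factors, no filter, DESeq2 1.42.0, the replicate block, all groups in 1 fit, each number left out in turn, and 1 library left out. A block without number 1 was added after seeing the data. Promoter sequences are from RefSeq (GRCm38.p6).

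The 6 members and the 4 pathway lists were chosen with earlier results of these data known. The members were described in every comparison, and pathway genes were named where they passed with a log2 change of at least 1 in size. The 3 most alike genes per member were sought among symbols with a mean of at least 5 CPM in every population (log2 CPM with a prior count of 2).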

Additional observations from a re-analysis of the deposited data

Results flagged for a closer look

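A library lay far from the other three of its group in 11 of the 120 member groups checked. The other 6, all Serpinb2 groups of *A. cahirinus* with at most 3 reads in a library, were not checked. Chance alone gives about 1 in 20 of independent groups of normally distributed values. The check used CPM without a log, whose distribution was not tested, and these groups share animals. In C56BL6 mice at 12 d, animal 1 stood apart in Plaur after 10 Gy (67.8 CPM, others 38.7 to 40.8) and in passaged cells (103 CPM, others 76.4 to 79.1). The same animal stood apart in Serpinb2 in untreated cells (33 CPM, others 0.626 to 0.843) and in passaged cells (35.5 CPM, others 4.35 to 8.03), and was low in Serpinf1 after 20 Gy (1220 CPM, others 1430 to 1450). Its libraries carried keratinocyte markers, and their part in these 5 values was not tested.

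In wild mice, untreated Plat at 12 d was high in animal 2 (490 CPM, others 249 to 273). Untreated Serpine2 was high in animal 1 at 24 h (5.55 CPM, others 0.618 to 1.03) and in animal 3 at 12 d (6.19 CPM, others 0.534 to 0.599). Serpinb2 at 20 Gy and 24 h was high in animal 2 (67.6 CPM, others 3.67 to 13.8). In untreated *A. cahirinus* cells at 12 d, animal 2 was low in Plau (31.7 CPM, others 45.2 to 47.9) and high in Serpinf1 (1180 CPM, others 895 to 934).

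Changes that differed between populations by the edgeR interaction test were those of Plaur and Serpine2. For Plaur at 20 Gy and 12 d, *A. cahirinus* minus C56BL6 mice was -2.77 ± 0.40 (SE, log2, adjusted p = 0.000609) and *A. cahirinus* minus wild mice -2.12 ± 0.53 (adjusted p = 0.045). The effect of passaging on Plaur differed by -1.43 ± 0.37 between *A. cahirinus* and C56BL6 mice (adjusted p = 0.0112). For Serpine2 at 20 Gy and 12 d, *A. cahirinus* minus wild mice was -3.64 ± 0.91 (adjusted p = 0.0452).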

How the results depend on the processing

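The replicate block (the animal number as a block, a real pairing here) raised the number of member tests that passed: from 0 to 16 for irradiation at 24 h, 7 to 18 for irradiation at 12 d, 0 to 3 for 20 Gy against 10 Gy, 7 to 13 for passaged against untreated, 7 to 11 for 20 Gy against passaged, 0 to 4 and 3 to 7 for differences between populations at 20 Gy (24 h and 12 d), and 1 to 4 for differences in passaging. With the replicate block and without replicate 1, an alternative chosen after seeing the data, these numbers were 20, 14, 1, 12, 10, 5, 6 and 5. No paired analysis was possible for untreated wild against C56BL6 cells because animals of 2 populations share only a number. Leaving out each number in turn gave 0 to 2, 1 to 9, 0 to 1, 4 to 8, 4 to 6, 0, 1 to 3 and 0 to 3 in the same order, and 0 to 1 for untreated wild against C56BL6 cells (1 with all). DESeq2 gave 1 for 20 Gy against 10 Gy, 2 for differences in passaging and 4 for untreated wild against C56BL6 cells, and 1 fit of all groups gave 1 for the first and 4 for the last. The log2 change of Serpinb2 in C56BL6 mice at 12 d changed sign: it spanned -0.268 to 3.31 at 20 Gy and -0.54 to 3.065 at 10 Gy with one number left out, and at 10 Gy was 1.735 with the replicate block and 3.051 with the block without number 1. That of Serpine2 in passaged wild cells spanned -1.37 to 0.453 and that of Plaur in *A. cahirinus* at 20 Gy and 24 h -0.062 to 0.16 with one number left out. The causes were not tested beyond the libraries left out. Leaving a number out also removes residual degrees of freedom. Another normalization or no filter left every member result reported singly on its side of the threshold. Counts lay at or near the floor for Serpinb2 in *A. cahirinus* among the members. Among the pathway genes the same held in some groups for Mmp10, Mmp13, Mst1, Serpinf2 and Vtn in C56BL6 mice. The part of sequencing depth in these low counts was not tested.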
